A study of Mus musculus with 6 samples.

Results

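The Hox genes were examined in RNA from epidermal cells of mouse back skin, taken on postnatal day 2 from 3 libraries of healing suction blisters and 3 libraries of control skin. Members were the rows of the count tables named Hoxa, Hoxb, Hoxc or Hoxd followed by digits only, leaving out Hoxc13, which gave 38 of the 24014 genes listed. There were 11 genes of the Hoxa cluster, 10 of Hoxb, 8 of Hoxc and 9 of Hoxd. All animals were wild type, and the sources used here name no strain and no number of animals per library. In the blister group, suction at 523.4 ± 1.3 mmHg through a syringe 4 mm wide raised blisters of typically 3 mm on newborn back skin, and the control group was skin of the same site and age. In both groups the epidermis was digested overnight in 0.25% trypsin and the minced tissue was strained at 70 µm. The labels do not tie a library to an animal, so p-values reflect how far these libraries vary, and how much of that variation is technical is not known.

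Hox genes encode transcription factors that bind DNA through a homeodomain. Mammals carry them in clusters A to D on separate chromosomes, and genes of the same number in different clusters are paralogues. Their order along a cluster matches their order of expression along the body, with low numbers reaching forward to the hindbrain and high numbers restricted to the lower trunk, limb buds and tail. Skin keeps a positional Hox pattern after birth, best known in dermal fibroblasts, whose Hox genes differ between body sites. Hox proteins bind together with homeodomain cofactors of the Pbx and Meis families.

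Some libraries stood apart in ways that touch the Hox genes. Totals ran from 7600567 to 15912863 counts per library. Markers of epidermal keratinocytes were abundant in every library, as the label requires. Dermal fibroblast markers were present too, all 18 of 18 in the list with none at 0, and their summed level was 826 to 1696 CPM in blister libraries and 2012 to 9761 CPM in controls. CPM is the count scaled to a fixed library size after TMM scaling, which adjusts for the make-up of each library. Control 3 was the highest of the 3 controls for 18 of the 18 fibroblast markers. Control 3 also held more skeletal muscle RNA, with a muscle marker sum of 162 CPM where the blister libraries had 1.65 to 3.03 CPM and control 1 and 2 had 1.92 and 1.75 CPM. Its endothelial marker sum was 72.2 CPM, where the blister libraries had 4.22 to 10.6 CPM and control 1 and 2 had 9.67 and 14.4 CPM. Neutrophil markers were higher in blister for 7 of 7 (median log2 fold change 5.48), where 9.74% of all genes tested were higher. Their sums were 111 to 401 CPM in blister and 27.0 to 29.996 CPM in control libraries. Their mean log2 CPM was 0.43, -0.07 and 0.29 in control 1, 2 and 3, so some may have been tested only through their level in blister. Values of control 3 are therefore given apart. In bulk RNA, fewer cells of a type and less RNA per cell cannot be told apart. Xist, an RNA of female cells, had 838, 879 and 8.49 CPM in blister 1, 2 and 3. In control 1, 2 and 3 it had 1409, 16.9 and 0.512 CPM. Ddx3y, a gene of the Y chromosome, had 0.275, 0.826 and 62.0 CPM in blister 1, 2 and 3. In control 1, 2 and 3 it had 1.30, 40.2 and 60.3 CPM. Each group thus held libraries of both sexes, in unlike proportions, and an effect of sex was not tested.

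In blister libraries Hoxd3, Hoxd4 and Hoxd8 were far lower than in controls, and Hoxb3, Hoxc8 and Hoxa9 were lower too, while 17 tested Hox genes did not pass the test. Summed over members, Hox RNA was 208, 276 and 206 CPM in blister 1, 2 and 3, against 250.2 and 256 CPM in control 1 and 2 and 320.1 CPM in control 3. Of the 38 members, 23 passed the filter on low counts and 15 did not. By the quasi-likelihood F-test of edgeR, with p-values adjusted after Benjamini and Hochberg, 6 of the 23 were lower in blister at an adjusted p under 0.05, which is 26.1% where 11.6% of all genes tested were lower. These were Hoxd3, Hoxd4, Hoxd8, Hoxa9, Hoxc8 and Hoxb3. In blister 1, 2 and 3, Hoxd3 had 1, 0 and 2 counts, Hoxd4 had 4, 4 and 8, and Hoxa9 had 6, 3 and 3. Those 3 genes passed the filter through their control libraries alone, so their place among the 23 depended on their level in controls. No member was higher in edgeR, DESeq2 or limma-voom, where edgeR called 9.74% of all genes higher. At an unadjusted p under 0.05, 8 members were lower and 1 was higher, where 20.0% and 19.0% of all genes were. DESeq2 called 6 members lower and 0 higher (14.4% and 14.0% of all genes), and limma-voom 5 and 0 (11.5% and 9.31%). Without control 3, 4 of 23 were lower (17.4%, against 5.48% of all genes), and these were Hoxd3, Hoxd4, Hoxd8 and Hoxb3. The median log2 fold change, blister over control, was -0.12 over the tested members and 0.00 over all genes tested.

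How many members were called moved with the libraries used, as did the calls over all genes. Without blister 1, 3 of 25 members were lower and 0 higher, where 3.46% and 3.74% of all genes were. Without blister 2 these numbers were 4 and 0 of 24 (7.30% and 7.23% of all genes), and without blister 3 they were 5 and 1 of 25 (14.4% and 13.9%). Without control 1 they were 3 and 0 of 24 (3.37% and 2.15%), without control 2 they were 6 and 0 of 25 (5.79% and 3.35%), and without control 3 no member was higher (3.83% of all genes). With blister 3 and control 3 both left out, 4 members were lower and 1 higher (11.3% and 9.57%). With blister 2 and control 3 both left out, 4 were lower and 0 higher (5.90% and 4.75%). Hoxd3, Hoxd4 and Hoxd8 were among the lower genes in each of these fits. With no filter 8 of 37 were lower (7.70% of all genes), with a stricter filter 3 of 18 (12.3%), with library size alone as the scale 8 of 23 (20.2%), and with the replicate number as a block 5 of 23 (10.8%).

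**Figure D1:**
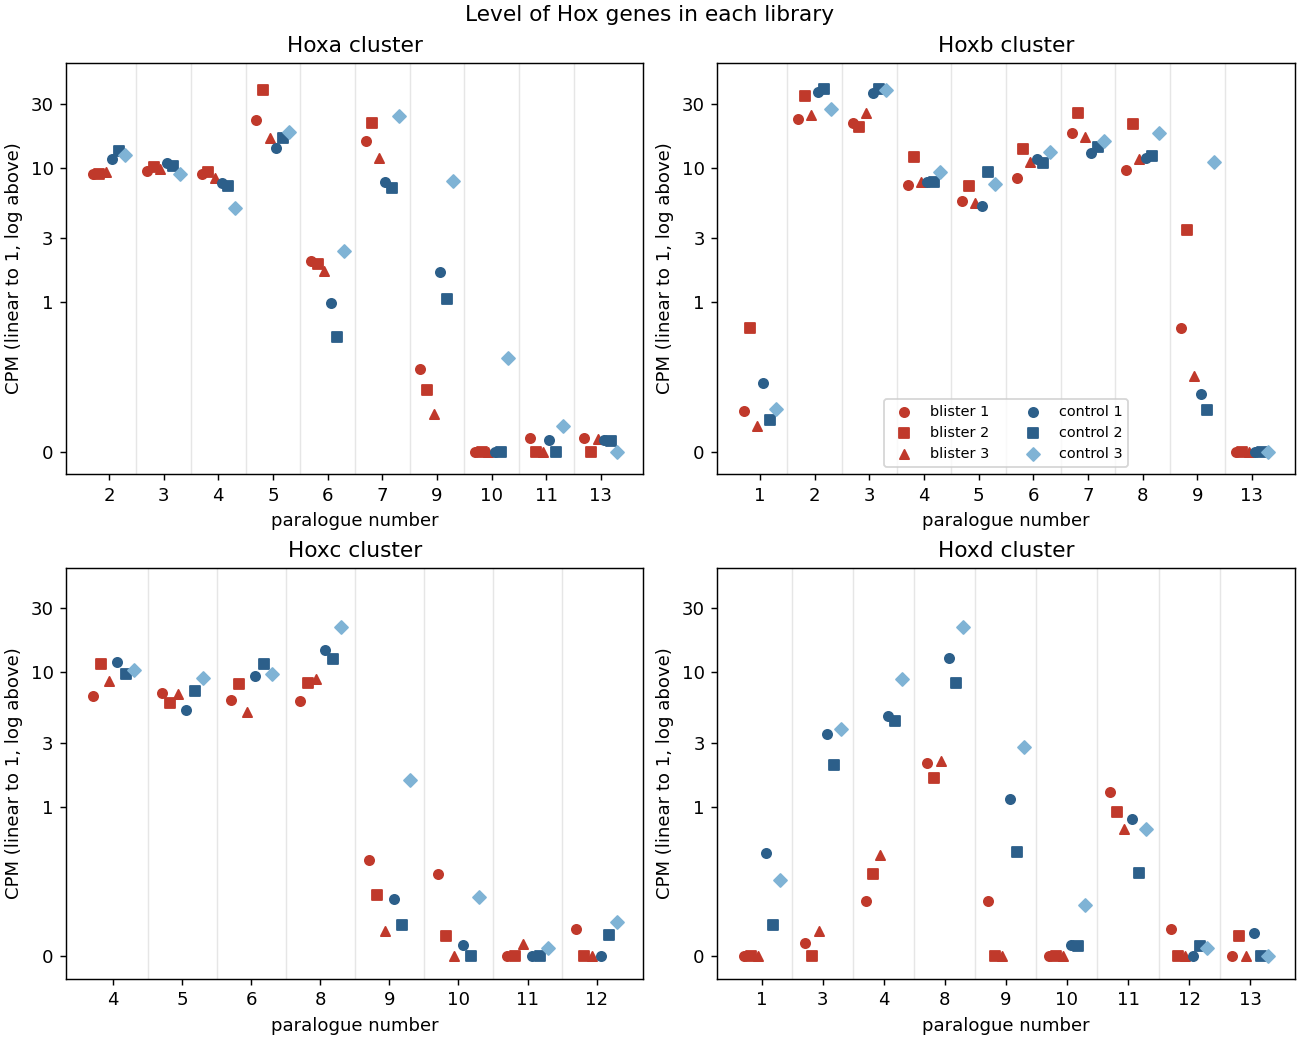
Level of the Hox genes described in the text in each library, in CPM (linear up to 1, log above), by cluster and paralogue number, with blister libraries in red to the left of control libraries in blue and control 3 in light blue. Hoxd3, Hoxd4 and Hoxd8 separate the groups, most Hoxa, Hoxb and Hoxc genes of paralogues 1 to 8 overlap or lie close, and Hoxa9 and Hoxb9 are highest in control 3.

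The Hoxd cluster was lower in blister libraries in 3 of its 4 tested genes, where 11.6% of all genes tested were lower, with a median log2 fold change of -3.15, or -2.73 without control 3. Its summed level was 4.41, 3.30 and 3.91 CPM in blister 1, 2 and 3, against 23.9 and 16.4 CPM in control 1 and 2 and 38.8 CPM in control 3. Every blister value thus lay below every control value, and the ratio of group means was 0.147. Among the tested Hoxd genes, Hoxd3 and Hoxd4 passed the filter through their control libraries alone. Of all Hox counts, Hoxd genes made up 2.12% (exact 95% binomial interval 1.57 to 2.80%), 1.20% (0.767 to 1.77%) and 1.90% (1.39 to 2.53%) in blister 1, 2 and 3. In control 1, 2 and 3 the share was 9.56% (8.58 to 10.6%), 6.40% (5.63 to 7.24%) and 12.1% (11.3 to 13.0%). The intervals cover counting error only, and those of the groups did not overlap.

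**Figure D2:**
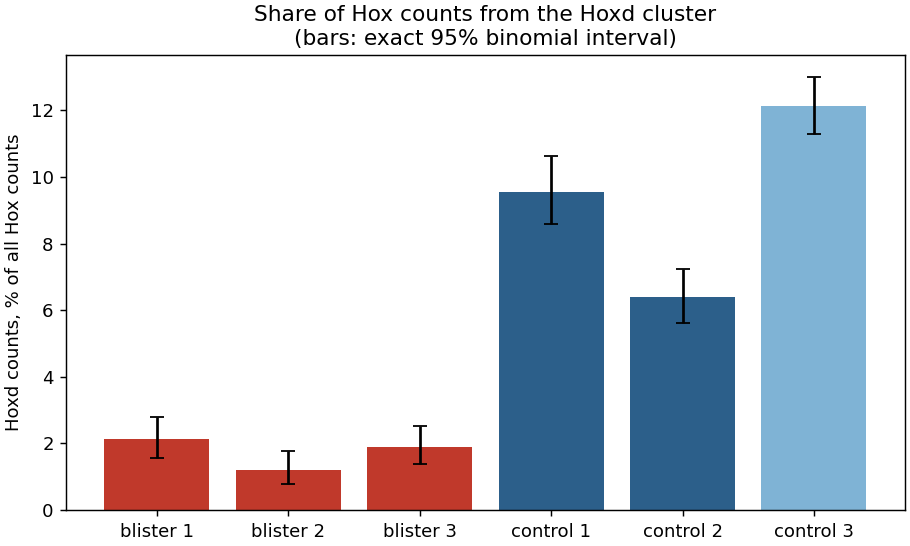
Share of all Hox counts that came from the Hoxd cluster in each library, in percent, with exact 95% binomial intervals. The 3 blister libraries lie between 1.20% and 2.12%, below the 3 controls at 6.40% to 12.1%.

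Hoxd8, Hoxd3 and Hoxd4 start next to each other in the cluster and all fell, so the 250 bases before the start of each are shown, from the RefSeq promoter table (build GRCm38.p6, plus strand). Capitals mark matches to CCAAT or TATAAA on either strand. The windows are chr2:74704365-74704614 for Hoxd8, chr2:74711743-74711992 for Hoxd3 and chr2:74721728-74721977 for Hoxd4.
Hoxd8: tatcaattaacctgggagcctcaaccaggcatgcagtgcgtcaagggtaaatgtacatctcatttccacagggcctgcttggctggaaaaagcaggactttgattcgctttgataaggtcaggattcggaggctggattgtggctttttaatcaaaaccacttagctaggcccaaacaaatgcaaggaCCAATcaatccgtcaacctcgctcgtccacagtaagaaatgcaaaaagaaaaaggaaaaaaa
Hoxd3: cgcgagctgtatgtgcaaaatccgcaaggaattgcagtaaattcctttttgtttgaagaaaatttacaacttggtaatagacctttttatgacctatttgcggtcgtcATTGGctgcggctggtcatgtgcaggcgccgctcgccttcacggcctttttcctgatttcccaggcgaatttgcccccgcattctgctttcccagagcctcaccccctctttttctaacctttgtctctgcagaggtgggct
Hoxd4: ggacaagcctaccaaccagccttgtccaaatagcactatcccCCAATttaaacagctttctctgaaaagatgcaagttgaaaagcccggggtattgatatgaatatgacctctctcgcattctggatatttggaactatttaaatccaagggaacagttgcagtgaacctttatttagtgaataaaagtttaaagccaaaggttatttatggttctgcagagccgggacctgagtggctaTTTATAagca
Each of the 3 holds a CCAAT match, at 62 bases before the start in Hoxd8, 142 in Hoxd3 (minus strand) and 208 in Hoxd4. CCAAT, searched on both strands, was found in 33.8% of the 32851 promoter windows of that length and in 14 of the 24 windows that belong to 22 of the 38 members. TATAAA was found in Hoxd4 on the minus strand, in 4 of the 24 windows and in 12.4% of all. The Pbx-Hox motif TGATNNAT was in 4 of the 24 Hox windows (7.68% of all) and the Meis motif TGACAG in 2 (15.9% of all), in neither case in these 3 windows. The windows hold 6 (Hoxd8), 12 (Hoxd3) and 3 (Hoxd4) CpG sites, against a median of 12.5 over the 24 Hox windows and 6 over all. A match is only a description of the letters.

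Hoxd3, which patterns the upper neck vertebrae in mice, had 0.0918, 0 and 0.170 CPM in blister 1, 2 and 3, against 3.45 and 2.03 CPM in control 1 and 2 and 3.81 CPM in control 3. Blister libraries held 3 counts in all and controls 141, a ratio of 31.3-fold lower with an exact Poisson 95% interval of 10.5 to 154-fold. That interval is for counts pooled over libraries and covers counting error only, not the variation between libraries. The log2 fold change was -4.84 (SE 0.60, with an adjusted p of 0.00658 in edgeR) and -4.64 ± 0.66 without control 3 (edgeR adjusted p = 0.0195). Every blister value lay below every control, and control 3 was close to control 1. Hoxd4, a gene of the hindbrain and neck, had 0.367, 0.551 and 0.679 CPM in blister 1, 2 and 3, against 4.76 and 4.34 CPM in control 1 and 2 and 8.87 CPM in control 3. Its log2 fold change was -3.47 (SE 0.43, with an adjusted p of 0.00669 in edgeR), and -3.07 ± 0.37 without control 3 (edgeR adjusted p = 0.0158). Hoxd8, expressed along the trunk in the embryo, had 2.11, 1.65 and 2.21 CPM in blister 1, 2 and 3, against 12.7 and 8.40 CPM in control 1 and 2 and 21.6 CPM in control 3. Its log2 fold change was -2.82 (SE 0.39, with an adjusted p of 0.0074 in edgeR), and -2.39 ± 0.30 without control 3 (edgeR adjusted p = 0.0167). For all 3 genes the groups did not overlap. Leaving out each library in turn gave adjusted p-values in edgeR of at most 0.0296 for Hoxd3, 0.0278 for Hoxd4 and 0.0312 for Hoxd8. In the annotation at hand (GENCODE M21, another build than the authors'), 68.6% of the exonic bases of Hoxd3 and 45.1% of those of Hoxd4 are shared with a transcript model on the same strand, Gm28230, so counts may have been lost or split between them in every library. Hoxd8 shares no exonic base.

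The remaining Hoxd genes were low. Hoxd9, a gene of the lower trunk and limb, had 0.367, 0 and 0 CPM in blister 1, 2 and 3, against 1.15 and 0.700 CPM in control 1 and 2 and 2.79 CPM in control 3. Hoxd1, which acts in sensory neurons in mice, had 0 counts in blister libraries and 21 in controls. That is 4.67-fold lower against a floor of 3 counts over the blister group, leaving out counting error in the controls. Hoxd9 and Hoxd1 were below the filter, and with no filter their edgeR adjusted p was 0.0426 (Hoxd9) and 0.0406 (Hoxd1). Hoxd10, a lumbar and limb gene, had 0 counts in blister libraries and 8 in controls, 6 of them in control 3. That is 1.78-fold lower on the same terms, and with no filter its edgeR adjusted p was 0.178. Hoxd11, which shapes the forearm, was the tested Hoxd gene that was not called. It had 1.28, 0.964 and 0.849 CPM in blister 1, 2 and 3, against 0.921 and 0.560 CPM in control 1 and 2 and 0.853 CPM in control 3 (log2 fold change 0.41, SE 0.37, with an adjusted p of 0.451 in edgeR). The groups overlapped there. In GENCODE M21, 23.9% of the exonic bases of Hoxd11 are shared with a transcript model on the same strand, Gm28309, so its counts may be affected too. Hoxd12 and Hoxd13, genes of the digits and tail end, had 2 and 1 counts in blister libraries and 2 each in controls, so no difference was detectable at this depth.

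Genes of paralogue groups 1 to 3 outside Hoxd, which act in the hindbrain and pharyngeal arches of the embryo, held 1 called gene, Hoxb3, which fell. Over all genes tested, 11.6% were lower. Hoxb3 had 21.4, 19.96 and 25.6 CPM in blister 1, 2 and 3, against 35.8 and 38.5 CPM in control 1 and 2 and 37.8 CPM in control 3. Control 3 resembled the other controls in this gene, and the groups did not overlap. Its log2 fold change was -0.74 (SE 0.13, with an adjusted p of 0.0135 in edgeR), with an adjusted p of 0.0428 without control 3, 0.0525 without blister 1, 0.0528 without control 1 and 0.0562 without blister 2 and control 3. Hoxa2, the selector gene of the hyoid arch, had 8.99, 8.95 and 9.25 CPM in blister 1, 2 and 3, against 11.7 and 13.4 CPM in control 1 and 2 and 12.5 CPM in control 3. The groups did not overlap, but the test was not passed (log2 fold change -0.46, SE 0.16, with an adjusted p of 0.08 in edgeR). Hoxb2, which acts in hindbrain nerves of the face, had 23.1, 33.9 and 24.5 CPM in blister 1, 2 and 3, against 36.4 and 38.4 CPM in control 1 and 2 and 27.4 CPM in control 3, with overlap (log2 fold change -0.33, SE 0.20, with an adjusted p of 0.254 in edgeR, or 0.0476 without blister 2 and control 3). Hoxa3, needed for the thymus and parathyroid, had 9.45, 10.05 and 9.85 CPM in blister 1, 2 and 3, against 10.9 and 10.3 CPM in control 1 and 2 and 9.04 CPM in control 3 (log2 fold change -0.04, SE 0.17, with an adjusted p of 0.877 in edgeR). Hoxb1 had 2 to 6 counts in each blister library and 3 to 6 in each control. Of the exonic bases of Hoxb2 and Hoxb3, 58.5% and 63.9% lie opposite the antisense gene Hoxb3os in GENCODE M21, and with the strand setting unknown their reads cannot be separated from it.

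**Figure D3:**
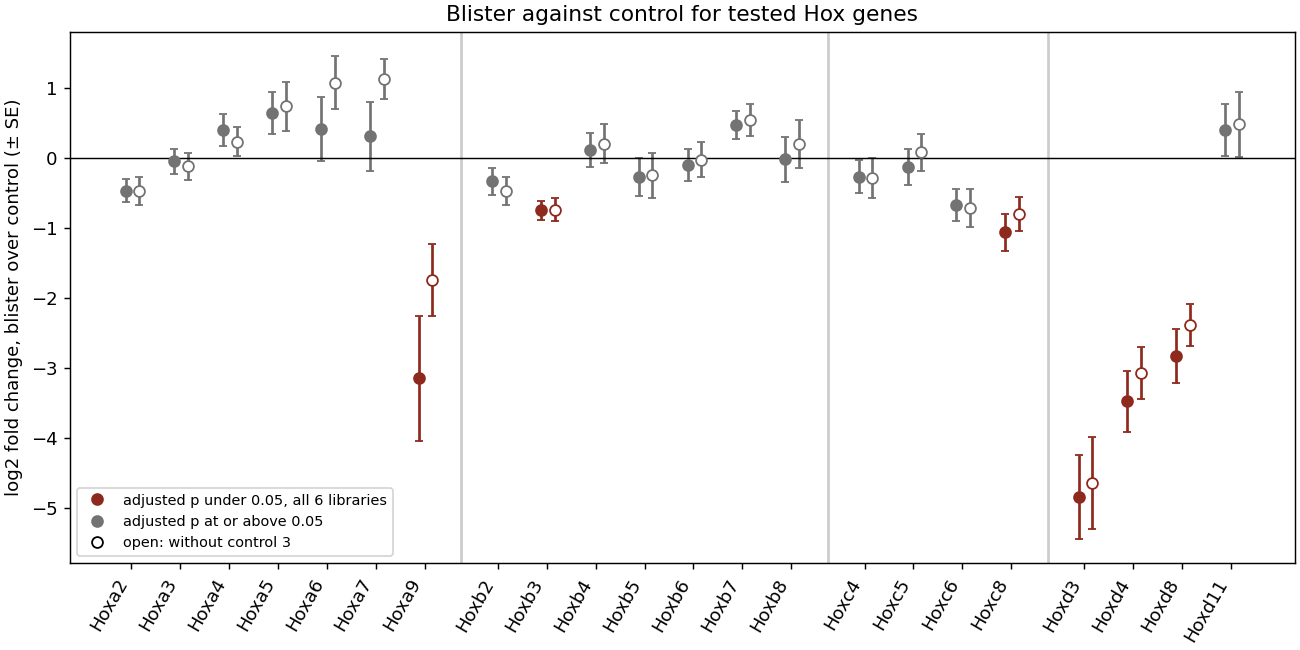
Log2 fold change of blister over control with its SE for the tested Hox genes described in the text, by cluster and paralogue number, from all 6 libraries (filled) and without control 3 (open). Hoxd3, Hoxd4 and Hoxd8 lie below -2 in both fits, while Hoxa9 moves to -1.73 without control 3.

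In paralogue groups 4 to 8, the genes of neck and chest, all 15 members passed the filter and 3 were called, all lower in blister, where 11.6% of all genes tested were lower and 9.74% higher. Besides Hoxd4 and Hoxd8 the lower one was Hoxc8, which patterns the chest vertebrae and ribs. Hoxc8 had 6.15, 8.40 and 8.92 CPM in blister 1, 2 and 3, against 14.6 and 12.6 CPM in control 1 and 2 and 21.6 CPM in control 3. The groups did not overlap (log2 fold change -1.06, SE 0.26, with an adjusted p of 0.0305 in edgeR), and without control 3 the value was -0.80 ± 0.24 with an adjusted p of 0.0797. It was called in 2 of the 6 leave-one-out fits, and its highest adjusted p in edgeR, without blister 1, was 0.0928 (0.0582 without blister 2 and 0.0763 without control 1). Its neighbour Hoxc6, a marker of the upper chest, had 6.24, 8.12 and 5.09 CPM in blister 1, 2 and 3, against 9.36 and 11.6 CPM in control 1 and 2 and 9.73 CPM in control 3. These groups did not overlap either, but Hoxc6 did not pass the test (log2 fold change -0.67, SE 0.23, with an adjusted p of 0.0781 in edgeR).

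The log2 fold changes of Hoxa5, Hoxb7, Hoxa4 and Hoxa7 were positive without passing the test. Hoxa5, which acts in the lung and the neck-to-chest transition, had 22.6, 38.0 and 16.6 CPM in blister 1, 2 and 3, against 14.0 and 16.6 CPM in control 1 and 2 and 18.3 CPM in control 3. Blister 2 stood highest, the groups overlapped, and the log2 fold change was 0.65 (SE 0.30, with an adjusted p of 0.146 in edgeR, or 0.0398 without blister 3). Hoxb7, a chest gene, had 18.1, 25.3 and 16.8 CPM in blister 1, 2 and 3, against 13.0 and 14.4 CPM in control 1 and 2 and 15.8 CPM in control 3. All blister values lay above all controls without passing the test (log2 fold change 0.47, SE 0.20, with an adjusted p of 0.119 in edgeR). Hoxa4, a neck gene, had 8.99, 9.22 and 8.41 CPM in blister 1, 2 and 3, against 7.67 and 7.35 CPM in control 1 and 2 and 5.06 CPM in control 3. It too did not overlap and did not pass (log2 fold change 0.41, SE 0.23, with an adjusted p of 0.218 in edgeR). Over the 23 tested members, 3 had blister values above all controls (13.0%, against 21.4% of all genes) and 8 had them below (34.8%, against 23.2%). The 8 include Hoxd3, Hoxd4 and Hoxa9, which passed the filter through their control libraries alone. The share of 34.8% thus depends in part on the filter and is no result about the members.

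Hoxa7, another chest gene, had a value in control 3 unlike that of the other controls. It had 15.9, 21.6 and 11.9 CPM in blister 1, 2 and 3, against 7.83 and 7.07 CPM in control 1 and 2 and 24.5 CPM in control 3. The blister values lay above control 1 and 2 and below control 3, and the log2 fold change, at 0.31 (SE 0.49, adjusted p 0.669 in edgeR), became 1.14 ± 0.29 without control 3 (edgeR adjusted p = 0.0547). With both blister 3 and control 3 left out it was 1.33 (edgeR adjusted p = 0.0201). In GENCODE M21, 23.3% of its exonic bases lie opposite the antisense gene Hoxaas3. Hoxa6, its neighbour, also had its blister values between control 3 and the other controls, with 2.02, 1.93 and 1.70 CPM in blister 1, 2 and 3, against 0.997 and 0.770 CPM in control 1 and 2 and 2.39 CPM in control 3 (edgeR adjusted p = 0.536).

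The other members of groups 4 to 8 overlapped between groups. Hoxb4, known for its role in blood stem cells, had 7.43, 12.0 and 7.90 CPM in blister 1, 2 and 3, against 7.83 and 7.84 CPM in control 1 and 2 and 9.27 CPM in control 3 (log2 fold change 0.12 ± 0.24, SE). Hoxb5, which acts in the shoulder girdle and gut nerves, had 5.69, 7.30 and 5.43 CPM in blister 1, 2 and 3, against 5.22 and 9.24 CPM in control 1 and 2 and 7.51 CPM in control 3 (log2 fold change -0.26 ± 0.27, SE). Hoxb6, a trunk gene, had 8.44, 13.9 and 11.0 CPM in blister 1, 2 and 3, against 11.6 and 10.8 CPM in control 1 and 2 and 13.0 CPM in control 3 (log2 fold change -0.09 ± 0.22, SE). In all 3 genes blister 2 was the highest blister library. Hoxb8, a gene of the trunk and of microglia, had 9.54, 21.1 and 11.6 CPM in blister 1, 2 and 3, against 11.8 and 12.3 CPM in control 1 and 2 and 18.1 CPM in control 3 (log2 fold change -0.01 ± 0.32, SE). Blister 2 and control 3 were its highest libraries. Hoxc4, a neck gene, had 6.70, 11.6 and 8.58 CPM in blister 1, 2 and 3, against 12.0 and 9.66 CPM in control 1 and 2 and 10.4 CPM in control 3 (log2 fold change -0.26 ± 0.24, SE). Hoxc5 had 7.07, 5.92 and 6.88 CPM in blister 1, 2 and 3, against 5.22 and 7.28 CPM in control 1 and 2 and 9.10 CPM in control 3 (log2 fold change -0.12 ± 0.26, SE). The adjusted p of these 6 genes in edgeR ran from 0.457 (Hoxc4) to 0.979 (Hoxb8).

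Summed over paralogue groups 9 to 13, those of the lower trunk, Hox RNA was low in all libraries but control 3. Their sum over 15 members was 4.77, 5.51 and 1.95 CPM in blister 1, 2 and 3, against 4.99 and 3.15 CPM in control 1 and 2 and 26.1 CPM in control 3. Control 3 was thus 6.42 times the mean of control 1 and 2, where the same ratio was 0.901 for groups 1 to 3 and 1.40 for groups 4 to 8. Most of the sum in control 3 came from group 9, with 23.4 CPM. Groups 10, 11, 12 and 13 had 1.37, 1.08, 0.284 and 0 CPM there. Of the 15, Hoxa9 and Hoxd11 were the 2 tested.

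Hoxa9, which acts in the lower trunk and in blood progenitors, had 0.551, 0.413 and 0.255 CPM in blister 1, 2 and 3, against 1.69 and 1.05 CPM in control 1 and 2 and 8.02 CPM in control 3. The groups did not overlap, and control 3 held 141 of the 178 control counts. The log2 fold change was -3.14 (SE 0.89, with an adjusted p of 0.0442 in edgeR), and -1.73 ± 0.52 without control 3 (edgeR adjusted p = 0.078). It was called in 1 of the 6 leave-one-out fits, that without control 2, and its adjusted p in edgeR was 0.0648 to 0.110 in the others. Hoxb9, which patterns the ribs, had 0.826, 3.44 and 0.509 CPM in blister 1, 2 and 3, against 0.384 and 0.280 CPM in control 1 and 2 and 11.0 CPM in control 3. It rested on 193 counts in control 3 and 25 in blister 2, with 4 to 9 in each other library. Hoxc9 had 0.642, 0.413 and 0.170 CPM in blister 1, 2 and 3, against 0.384 and 0.210 CPM in control 1 and 2 and 1.59 CPM in control 3, and with Hoxd9 all 4 genes of group 9 were highest in control 3.

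The numbers 10 to 13 were near the limit of detection. Hoxa10, known from the uterus and lumbar spine, had 11 counts in control 3 and 0 in each of the other 5 libraries. Hoxc10 had 7 counts in blister libraries, 6 of them in blister 1, and 8 counts in controls, 7 of them in control 3. Hoxa11, Hoxa13, Hoxc11 and Hoxc12 had 1, 2, 1 and 2 counts in blister libraries and 4, 2, 1 and 6 in controls. Hoxb13, a gene of the prostate and tail end, had 0 counts in all 6 libraries, which allows up to 0.413 CPM in blister 2, the shallowest, and 0.171 CPM in control 3, the deepest (3 counts each).

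**Figure D4:**
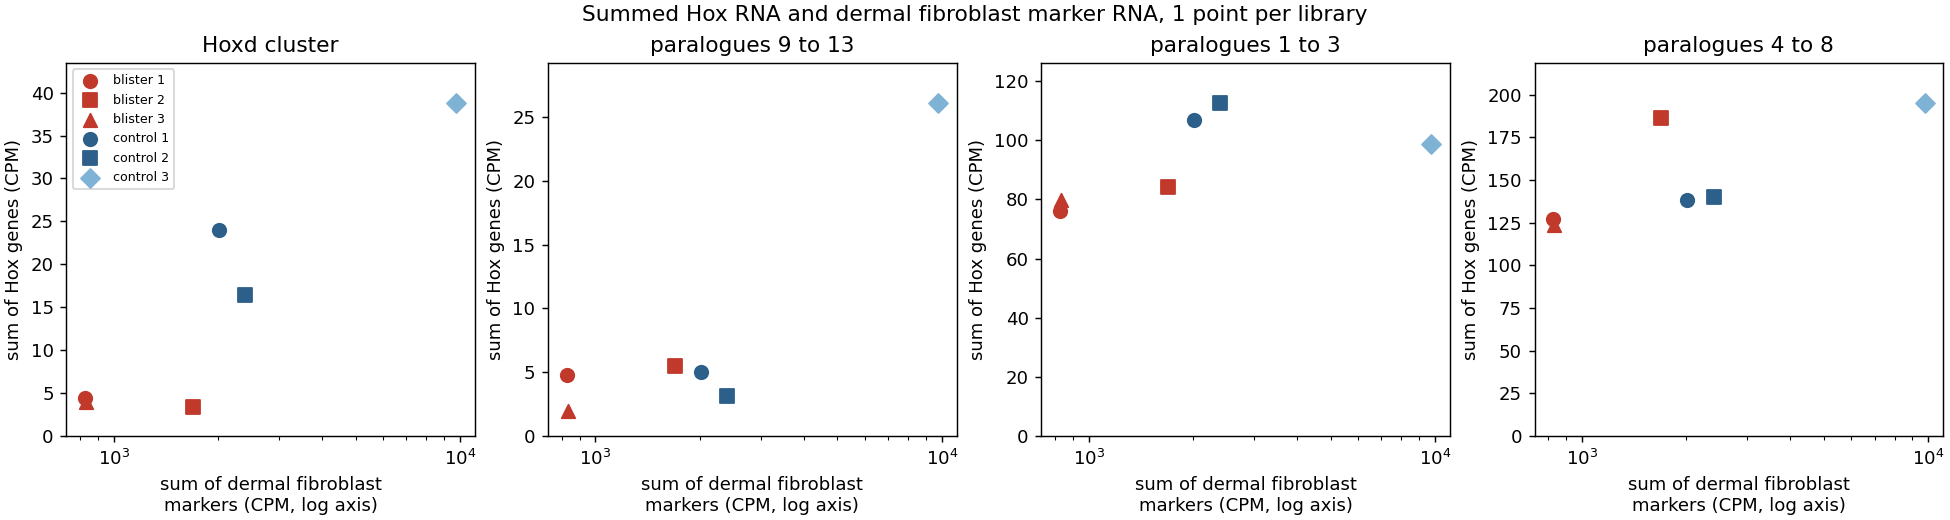
Summed CPM of Hox genes (Hoxd cluster, paralogues 9 to 13, 1 to 3 and 4 to 8) against the summed CPM of 18 dermal fibroblast markers on a log axis, with 1 point per library. Control 3, at 9761 CPM of fibroblast markers, is highest for the Hoxd cluster and for paralogues 9 to 13 but not for paralogues 1 to 3. It is also highest for paralogues 4 to 8, with 195 CPM, where blister 2 lies close at 187 CPM.

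Many markers of dermal cells were, like most tested Hoxd genes, lower in blister than in control libraries. Of the fibroblast list 9 of 18 tested markers were called, all lower in blister (median log2 fold change -2.55), and of the dermal papilla list 8 of 9 tested were called, all lower (median -3.49). Over all genes tested, 11.6% were lower. The dermal papilla is the mesenchymal core of the hair follicle. Its marker sum was 33.3, 37.3 and 71.2 CPM in blister 1, 2 and 3, against 275 and 201 CPM in control 1 and 2 and 316 CPM in control 3. Markers of follicle epithelium were lower for 10 of 12. In a fit with the mean log2 CPM of the fibroblast list as a covariate, a measure that itself differs between the groups, Hoxd3 (-4.47 ± 0.82 on the log2 scale, SE, adjusted p 0.0425 in edgeR) and Hoxd4 (-2.53 ± 0.46, adjusted p 0.0408) were called lower. Hoxd8 was at -2.07 ± 0.49 (edgeR adjusted p = 0.0738), Hoxb3 at -0.78 ± 0.23 (edgeR adjusted p = 0.117), Hoxc8 at -0.47 ± 0.30 (edgeR adjusted p = 0.40) and Hoxa9 at -0.64 ± 0.84 (edgeR adjusted p = 0.695). That fit called 0.784% of all genes lower. Blister 2, with 1696 CPM of fibroblast markers, had a Hoxd sum of 3.30 CPM and a dermal papilla sum of 37.3 CPM, against 2012, 23.9 and 275 CPM for the same 3 sums in control 1. The covariate moves with the group and holds no dermal papilla gene, so the fit cannot tell dermal content from group. The part of dermal cells in the Hoxd result was not tested. Keratinocyte markers summed to 191130, 104301 and 115243 CPM in blister 1, 2 and 3, against 66857 and 91521 CPM in control 1 and 2 and 64751 CPM in control 3.

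Levels of different genes were set side by side per kilobase of exon (GENCODE M21 lengths, which may differ from those of the authors' annotation). In blister libraries Hoxb2 led with 16.7 CPM per kb, followed by Hoxb7 with 15.5 and Hoxa5 with 13.7 CPM per kb. In controls Hoxb2 led with 20.9 CPM per kb, followed by Hoxb7 with 11.1, Hoxb3 with 10.6, Hoxc8 with 8.70 and Hoxa5 with 8.68 CPM per kb. Across blister libraries the first 3 overlapped, with 14.2 to 20.8 CPM per kb for Hoxb2, 13.0 to 19.6 for Hoxb7 and 8.87 to 20.2 for Hoxa5. Across controls Hoxb2, with 16.8 to 23.6 CPM per kb, lay above Hoxb7 with 10.04 to 12.2, and Hoxb7 overlapped with Hoxb3. With the strand setting unknown, reads of Hoxb2 and Hoxb3 cannot be separated from those of the antisense gene Hoxb3os. The ranks of these genes are therefore uncertain. Hoxd8 had 0.769, 0.602 and 0.805 CPM per kb in blister 1, 2 and 3, against 4.64 and 3.06 CPM per kb in control 1 and 2 and 7.86 CPM per kb in control 3. Its paralogue Hoxb8 had 3.62, 7.99 and 4.41 CPM per kb in blister 1, 2 and 3, against 4.48 and 4.68 CPM per kb in control 1 and 2 and 6.86 CPM per kb in control 3. The ranges of these paralogues overlapped in controls, and Hoxd8 lay below Hoxb8 in every blister library. Among groups 9 to 13, Hoxd11, whose exons are partly shared with Gm28309, had the highest mean in blister libraries, 0.929 CPM per kb. In controls Hoxd11 had 0.829 and 0.504 CPM per kb in control 1 and 2 and 0.768 CPM per kb in control 3, while Hoxb9 had 0.149 and 0.109 CPM per kb in control 1 and 2 and 4.27 CPM per kb in control 3.

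Most cofactors of Hox proteins did not pass the test. Of 8 tested members of the Pbx, Meis and Pknox list, 1 was called, Pbx2, which was lower (median log2 fold change -0.32). Over all genes tested, 11.6% were lower and 9.74% higher. Pbx2 had 58.4, 67.7 and 57.5 CPM in blister 1, 2 and 3, against 83.2 and 83.0 CPM in control 1 and 2 and 84.8 CPM in control 3 (log2 fold change -0.45, SE 0.11, with an adjusted p of 0.0273 in edgeR). The groups did not overlap, but the adjusted p in edgeR was 0.0807 without control 3, 0.0904 without blister 1, 0.101 without control 1 and 0.076 without control 2. Meis1 averaged 7.39 ± 1.03 CPM (SD, n = 3) in blister and 9.93 ± 1.31 CPM in control libraries (edgeR adjusted p = 0.166). Meis2 averaged 7.98 ± 0.826 CPM in blister and 7.01 ± 1.42 CPM in control libraries (edgeR adjusted p = 0.568).

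Among the Polycomb and trithorax genes, whose products keep Hox clusters silent or active, 5 of 27 were lower and 1 was higher, where 11.6% and 9.74% of all genes tested were, with a median log2 fold change of -0.18. Pcgf2, also called Mel18 and a subunit of the Polycomb complex PRC1, had 40.4, 43.1 and 44.4 CPM in blister 1, 2 and 3, against 65.3 and 66.6 CPM in control 1 and 2 and 68.3 CPM in control 3 (log2 fold change -0.65, SE 0.10, with an adjusted p of 0.00915 in edgeR). Cbx6, another PRC1 subunit, averaged 71.4 ± 5.06 CPM in blister and 137 ± 27.0 CPM in control libraries (edgeR adjusted p = 0.0108). In both genes every blister value lay below every control. The remaining genes lower in blister were Cbx2, Cbx7 and Men1, and the gene that rose was Aebp2, a partner of the Polycomb complex PRC2. Without control 3 the adjusted p in edgeR was 0.0813 for Cbx2 and 0.0819 for Men1. With the dermal covariate it was 0.110 for Pcgf2 and 0.121 for Cbx6.

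Of 13 tested genes that flank the Hox clusters, 1 was called, Skap2, which was higher, and the median log2 fold change was 0.10. Over all genes tested, 9.74% were higher and 11.6% lower. Skap2, an adaptor gene beside the Hoxa cluster, had 102, 94.8 and 92.0 CPM in blister 1, 2 and 3, against 59.3 and 62.8 CPM in control 1 and 2 and 51.6 CPM in control 3 (log2 fold change 0.74, SE 0.12, with an adjusted p of 0.00972 in edgeR, or 0.118 with the dermal covariate). Mtx2 and Lnp, which border the Hoxd cluster, had log2 fold changes of 0.32 and 0.15 (edgeR adjusted p = 0.113 and 0.408). Of 18 non-coding RNAs of the clusters 10 had a row in the tables and 0 passed the filter.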

How the data were processed

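The 6 tables hold raw read counts per gene symbol as deposited by the authors. Per the submitters' processing notes, HISAT2 2.0.0 and featureCounts were used, with NCBIM37 and mm9 as builds. Strand setting and counter version are not stated there. Members and gene lists were chosen with earlier results of these data known. The main test was that of edgeR 4.0.16 (under R 4.3.3, with limma 3.58.1): filterByExpr by group (minimum count 10, minimum total 15), TMM scaling, quasi-likelihood F-tests without robust estimation, two-sided p-values adjusted by Benjamini-Hochberg over the 14028 genes left, threshold 0.05. CPM uses the library size of that fit, and log2 CPM, used for the dermal covariate, takes a prior count of 2. Members were described in full if called or at a mean of 5 CPM or more. From the other lists the called genes with the smallest p-values and Meis1 and Meis2 were described. Some genes counted in the totals are not reported here by name. Mtx2, Lnp and genes named after counts were chosen after their values were seen. All pairs of libraries within a group differed beyond sampling noise. The procedure was tested on simulated data. Alternatives were other scalings, filters, DESeq2 1.42.0, limma-voom, robust edgeR, covariates and left-out libraries. Symbols of all 38 members matched GENCODE M21. Plots used matplotlib 3.10.9.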

Additional observations from a re-analysis of the deposited data

How the results depend on the processing

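Hoxd3 and Hoxd4 were lower in blister at an adjusted p under 0.05 in every alternative that tested them; the stricter filter (at least 5 CPM in 3 libraries) left both out. Hoxd8 was too, except with the dermal marker covariate. The number of Hox genes lower in blister was 6, and it was 3 with the stricter filter, 2 with the dermal marker covariate and 3 to 6 when 1 library was left out. The number higher was 0, 0 to 1 with 1 library left out (Hoxa5, without blister 3) and 1 without blister 3 and control 3 (Hoxa7). The median log2 fold change over members of -0.12 became -0.38 with library size alone, where the median of all genes was -0.25, -0.26 with no filter, which tested 37 members, and -0.39 to -0.11 with 1 library left out. All genes called numbered 2993, and 326 with the dermal covariate, 785 to 4061 with 1 library left out and 1493 without blister 2 and control 3, an alternative chosen after seeing the data. With library size alone 83.9% of called genes were lower, against 54.3%.

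Small uncalled changes switched sign. Hoxb4 was -0.12 with library size alone, -0.030 without blister 2 and control 3 and -0.11 to 0.26 with 1 library left out. Meis2 was -0.075 with library size alone. With the dermal covariate Hoxb6 was 0.29, Hoxb8 0.78 and Hoxc5 0.19. Without blister 3 and control 3 Hoxb8 was 0.33 and Hoxc5 0.065, and Hoxc5 was 0.16 without blister 2 and control 3. With 1 library left out Hoxb6 ran from -0.27 to 0.085, Hoxb8 from -0.40 to 0.22, Hoxa3 from -0.11 to 0.018 and Hoxc5 from -0.30 to 0.086. The cause was not tested. With the replicate number as a block 5 Hox genes were lower (2876 genes in all), Hoxa9 having an edgeR adjusted p of 0.0693. Libraries of the same number did not deviate together (r across genes 0.21, -0.26 and 0.01 for numbers 1, 2 and 3), so no pairing by number was seen. With 3 libraries per group, such values cannot exclude it. Members with a mean under 1 CPM rest on few counts. With no filter Hoxd1 and Hoxd9 were called lower, with an edgeR adjusted p of 0.0406 and 0.0426. No other member under 1 CPM was called in that fit.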

Other observations

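Other factors with a known place in the trunk or limb skin also differed between the groups. Of 12 tested in that list 8 were lower and 1 was higher in blister (edgeR adjusted p under 0.05, median log2 fold change -2.80). Over all genes tested, 11.6% were lower and 9.74% higher. Twist1, a mesenchymal factor, had 0.734, 3.03 and 2.63 CPM in blister 1, 2 and 3, against 20.4, 16.0 and 25.0 CPM in control 1, 2 and 3 (log2 fold change -3.29 ± 0.45 (SE), edgeR adjusted p = 0.0074). Msx2, a factor of the hair follicle and limb bud, averaged 6.67 ± 2.63 CPM (SD, n = 3) in blister and 35.1 ± 13.7 CPM in control libraries (edgeR adjusted p = 0.00876, or 0.0535 with the dermal covariate). Tbx15, which marks dorsal dermis, had 0.734, 1.93 and 1.70 CPM in blister 1, 2 and 3, against 9.51, 9.10 and 27.2 CPM in control 1, 2 and 3. The gene that rose was Pitx1, known as a hindlimb selector, with 3.03, 2.48 and 5.52 CPM in blister 1, 2 and 3, against 0.921, 0.210 and 0.228 CPM in control 1, 2 and 3 (log2 fold change 3.06 ± 0.61 (SE), edgeR adjusted p = 0.0173). Twist1 and Tbx15 lay under the minimum of the low-count filter in blister 1, and Pitx1 did in control 2 and 3. The place of these genes among the 12 tested thus depended on the group where they were high, which limits the counts given above. Tbx15 and Pitx1 were chosen after their values were seen.

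Hoxb9 and some other genes shared an order of libraries in which blister 2 and control 3 stood highest. Mir196a-1, a microRNA gene of the Hoxb cluster that rests on few counts, had 0.0918, 0.964 and 0.255 CPM in blister 1, 2 and 3, against 0.0767, 0 and 1.59 CPM in control 1, 2 and 3. Lox, an enzyme that crosslinks collagen, had 2.39, 35.7 and 1.10 CPM in blister 1, 2 and 3, against 0.614, 2.73 and 46.1 CPM in control 1, 2 and 3. Mfap5, a microfibril gene, had 0.826, 8.81 and 0.425 CPM in blister 1, 2 and 3, against 0.307, 0.980 and 18.4 CPM in control 1, 2 and 3. Lox and Mfap5 belong to the dermal fibroblast list. The sum of that list was likewise highest in blister 2 among blister libraries and in control 3 among controls. The sum of Hoxd genes was likewise highest in control 3 but lowest in blister 2. These genes were chosen after their values were seen, and the pattern was not tested.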
